A study of Homo sapiens with 12 samples.

Results

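Contact with the nuclear lamina was described for 9 receptor-type protein tyrosine phosphatase genes, namely PTPRZ1, PTPRG, PTPRM, PTPRK, PTPRT, PTPRU, PTPRD, PTPRS and PTPRF, of 19970 protein-coding genes on the autosomes and X. The set was put together by gene family because PTPRZ1 and PTPRM lay in lamina-associated domains (LADs) of naive cells only. That contrast, and the covered shares, pieces and gaps that come with it, therefore describe the choice and were not tested. LADs were mapped by pA-DamID in H9, an established human embryonic stem cell line. In this assay a protein A-Dam fusion is held at the lamina by an antibody to its protein lamin B1 (LMNB1) and methylates adenines in nearby GATC sites. The groups were 3 LMNB1 and 3 Dam-only libraries of naive cells (kept in RSeT medium) and 3 LMNB1 and 3 Dam-only libraries of primed cells (kept in mTeSR). The Dam-only libraries, made with untethered Dam, show how readily the DNA of each state is methylated without the antibody. The labels name no other treatment, and all libraries came from this 1 line.

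The deposited data used here were 1 list of LAD intervals for each state, naive and primed, without a score, a signal or values per library. Sequencing depth behind a call is therefore unknown. Differences between the states are values of these 2 lists, with no replicate error and no test. The lists held 9178 naive LADs covering 1438 Mb and 5671 primed LADs covering 1319 Mb, all in whole 10 kb windows. Genes were called in a LAD when at least 50% of the RefSeq gene body was covered. A window outside a list may also be one with few usable reads or few GATC sites, which the lists do not show. Expression was not measured in these files, so none of the values below says whether a gene was active.

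Receptor tyrosine phosphatases remove phosphate groups from tyrosines at the cell membrane. Most carry phosphatase domains in tandem inside the cell and outside it modules known from adhesion molecules, such as immunoglobulin-like and fibronectin type III repeats. The R5 subfamily (PTPRZ1, PTPRG) has a carbonic anhydrase-like domain and binds contactins and, for PTPRZ1, the growth factor pleiotrophin. The R2B subfamily (PTPRM, PTPRK, PTPRT, PTPRU) has a MAM domain, and several of its members bind copies of themselves on the next cell, where they act on cadherin junctions. R2A, the LAR subfamily (PTPRD, PTPRS, PTPRF), is best known for organising synapses and guiding axons.

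Lamina contact differed between members within every subfamily. In naive LADs lay 4 of the 9 genes, PTPRZ1, PTPRM, PTPRK and PTPRD, and primed LADs held 2, PTPRK and PTPRD. PTPRZ1 and PTPRM were thus in naive LADs only, 0 members were in primed LADs only, and PTPRG, PTPRT, PTPRU, PTPRS and PTPRF were in neither. Over all protein-coding genes the naive list took in 18.9% and the primed list 17.3%. Split by state, 15.4% were in LADs of both, 3.44% naive-only, 1.89% primed-only and 79.3% outside. These genes are long, however, and long genes lay in LADs more often. Among the 3692 genes of at least 90.3 kb, the length of the shortest member, the naive list took in 38.9% and the primed list 34%, with 32.1% in both, 6.77% naive-only, 1.92% primed-only and 59.2% in neither. Because the genes were chosen on these calls, nothing is read from the members' counts against these shares. For the 9 genes the median covered share was 13.8% in naive LADs and 0% in primed LADs, beside 2.36% and 0% for genes of at least 90.3 kb. Added up, the 9 gene bodies span 6.10 Mb, of which naive LADs covered 3.80 Mb (62.4%) and primed LADs 2.85 Mb (46.7%). PTPRD alone contributed 2289 kb of the naive and 2299 kb of the primed bases.

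**Figure D1:**
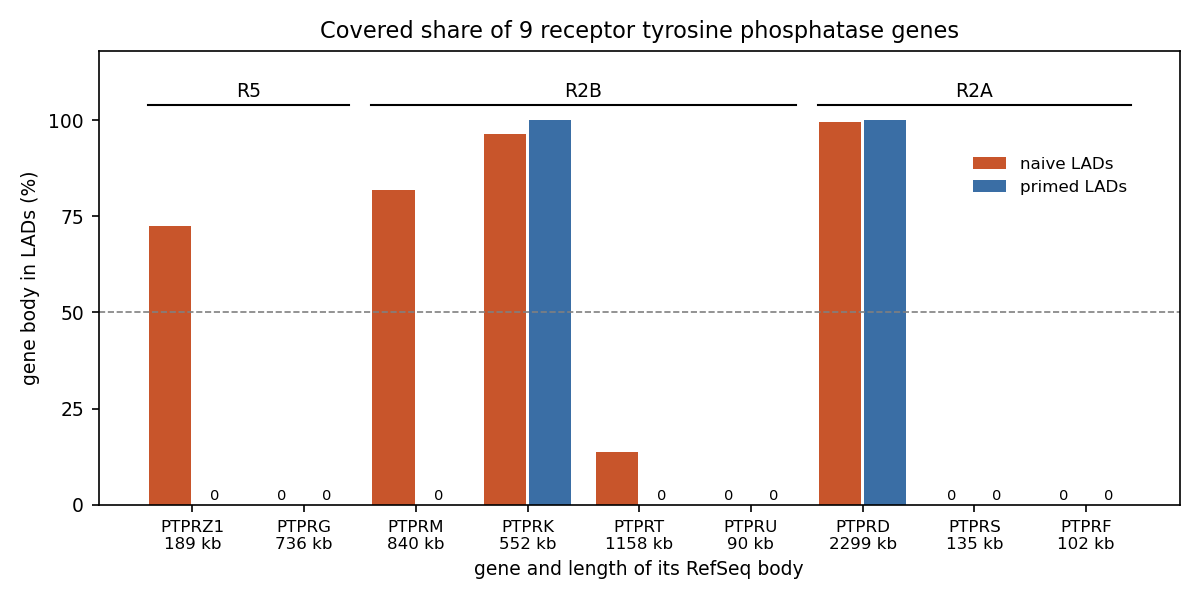
Percentage of each gene body inside naive LADs (orange) and primed LADs (blue), grouped by subfamily, with the gene length under each name and the 50% call threshold dashed. PTPRZ1 (72.4% in naive, 0% in primed) and PTPRM (81.8% and 0%) differ between the lists, PTPRK and PTPRD are covered in both, PTPRT reaches 13.8% in naive only, and the other 4 genes are at 0% in both.

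**Figure D2:**
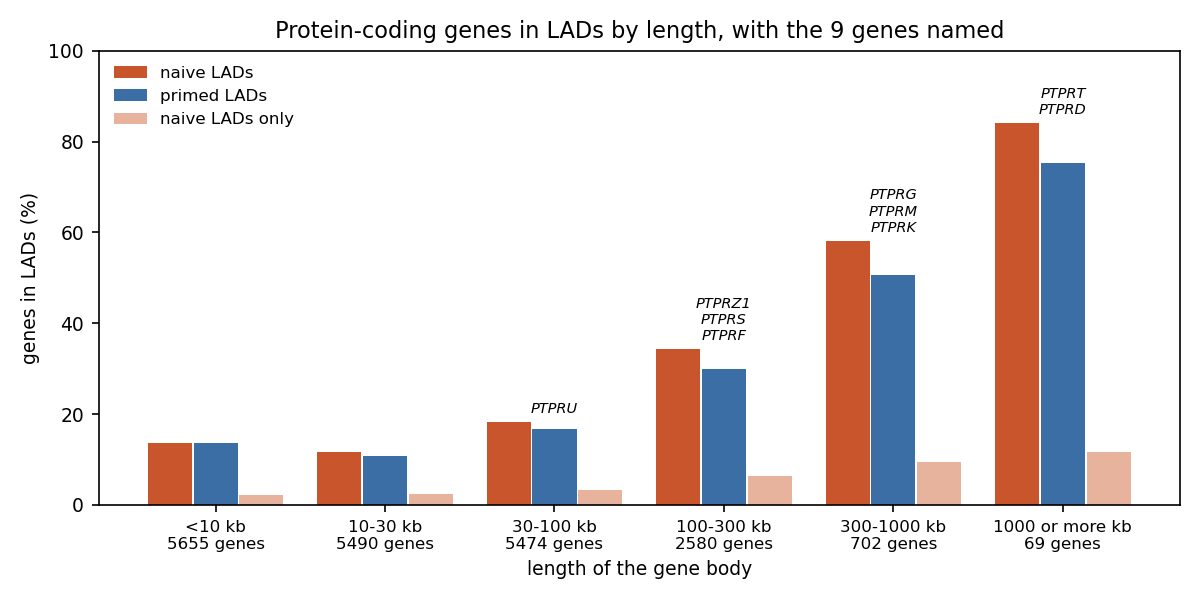
Percentage of protein-coding genes in naive LADs, in primed LADs and in naive LADs only (bars), by gene length, with the 9 receptor phosphatase genes written above their length class. The share in naive LADs is 13.7% below 10 kb and 84.1% at 1000 kb or more, against 13.7% and 75.4% for primed LADs.

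PTPRM encodes a phosphatase that binds itself between neighbouring cells and sits at cadherin junctions. The gene (chromosome 18, 7567316 to 8406856, forward strand) spans 840 kb, of which 687 kb (81.8%) lay in naive LADs and 0 kb in primed LADs. Naive coverage came in 10 pieces, the longest of 220 kb (7740001 to 7960000) and the next of 157 kb at the 3′ end of the gene (8250001 to 8406856). Between them lay 9 gaps of 10 to 30 kb, 150 kb in all, of which 4 were single windows. Cut into 3 equal parts from the 5′ end, the gene body was covered at 84.7%, 75.0% and 85.7% in naive LADs. Coverage was thus spread over all 3 parts, though broken by these gaps. Of the 403 genes called in naive LADs with no primed LAD base at all, PTPRM ranked 3 by length, after OPCML (1117521 bases) and NTM (966208 bases), which encode IgLON adhesion proteins. OPCML and NTM were singled out after their values were seen. All 5 RefSeq genes nested inside PTPRM, 4 long non-coding RNA genes and a small nucleolar RNA gene, lay in naive LADs. That 0 of them lay in primed LADs follows from the coverage of PTPRM. They are parts of the same gene body and give no separate support.

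In the naive list as given, the start of PTPRM was not in a LAD, although most of its body was. That call rests on a short gap, since 73.15% of the first 10 kb of the gene lay in naive LADs. Bridging all gaps of under 50 kb brought naive coverage to 100% of the gene, start included. Filling only single-window gaps gave 86.6%, and leaving out single-window LADs gave 78.2%. RefSeq places the first base 2.69 kb before the first naive piece inside the gene, a single window (7570001 to 7580000), and a naive LAD upstream ended 17.3 kb before the start. A second annotated start lies 380 kb into the gene, inside the 220 kb naive piece. Both promoters are shown because they differ in base composition and, in the naive list as given, in lamina contact. They run from 250 bases before to 50 after the start, come from RefSeq (GRCh38.p14, forward strand, chr18:7567066-7567365 and chr18:7946625-7946924), and have each CG dinucleotide in capitals.
PTPRM upstream promoter: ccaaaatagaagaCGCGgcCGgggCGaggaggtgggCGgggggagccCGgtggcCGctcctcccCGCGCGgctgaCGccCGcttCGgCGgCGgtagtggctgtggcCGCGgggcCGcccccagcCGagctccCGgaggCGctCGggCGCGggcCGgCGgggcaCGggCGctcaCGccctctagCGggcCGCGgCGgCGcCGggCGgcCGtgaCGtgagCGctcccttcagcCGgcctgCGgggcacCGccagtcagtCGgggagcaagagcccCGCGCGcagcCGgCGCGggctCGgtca
PTPRM internal promoter: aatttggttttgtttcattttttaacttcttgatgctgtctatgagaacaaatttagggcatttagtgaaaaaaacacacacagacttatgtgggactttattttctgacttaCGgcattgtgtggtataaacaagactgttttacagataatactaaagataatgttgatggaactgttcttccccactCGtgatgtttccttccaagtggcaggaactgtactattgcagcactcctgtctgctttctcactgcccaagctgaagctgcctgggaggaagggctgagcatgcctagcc
The upstream promoter held 50 CG dinucleotides and 80.7% G and C, the internal one 2 and 41.0%. In the 100 kb around the upstream start 60% of bases were in naive LADs, and 80% around the internal start, against 0% in primed LADs at both. Of long genes with a known strand in naive LADs, 20.4% (242 of 1185) had their start outside the LAD, and 13.5% (140 of 1039) of those in primed LADs.

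PTPRM lay in a long stretch without any primed LAD. The nearest primed LADs ended 2327 kb upstream and began 6433 kb downstream of the gene, which left 9.60 Mb (5240001 to 14840000) free of primed LADs. Single 10 kb windows bounded it on both sides, and without single-window LADs in either list the stretch measured 22.31 Mb, with 4.60 Mb of naive LADs inside. In the full lists, naive LADs covered 2.66 Mb (27.7%) of the 9.60 Mb stretch. There were 5694 stretches between primed LADs or from them to a chromosome end, of which 30 were at least this long. None of the other stretches held as many naive LAD bases. PTPRM was chosen as naive-only, and its own 687 kb of naive LADs count in the 2.66 Mb. The rank thus follows in part from that choice, and no rank without the gene was computed. The stretch contained 46 protein-coding genes, and 6 were in naive LADs: ZBTB14 (100% naive), EPB41L3 (95.8%), L3MBTL4 (95.7%), LAMA1 (50.1%), LRRC30 (100%) and PTPRM, all at 0% in primed LADs. The naive contact was uneven on both sides of the gene. Naive LADs covered 74.0% of the 500 kb upstream and 2.63% of the 500 kb downstream, all of it within the first 100 kb. LRRC30, the nearest protein-coding gene upstream at 335 kb, was covered at 100% in naive LADs, against 0% in primed LADs. RAB12, a small GTPase gene 203 kb downstream, was at 0% in both. Chromosome 18 as a whole was covered at 56.1% in naive LADs, against 46.9% in primed LADs.

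**Figure D3:**
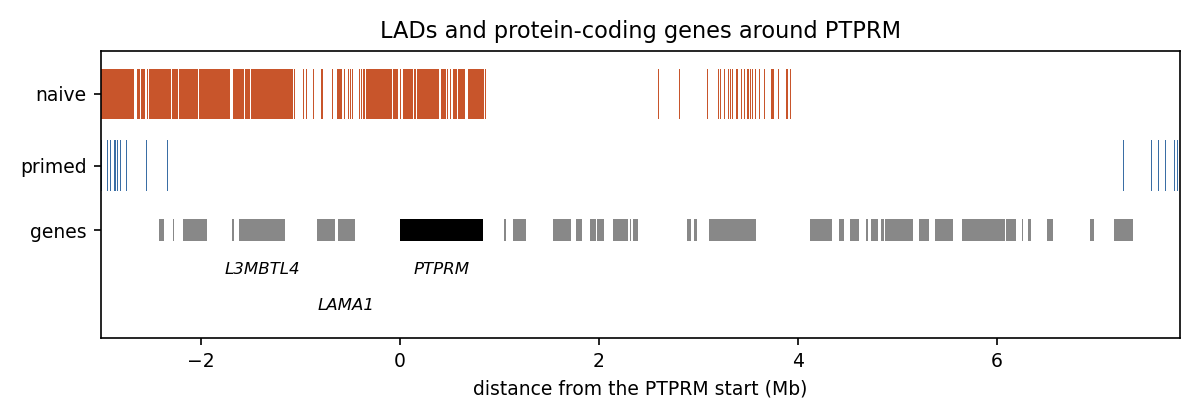
Naive LADs (orange), primed LADs (blue) and protein-coding genes (grey, PTPRM black) against the distance from the PTPRM start in Mb. Naive LADs cover PTPRM and the DNA upstream of it, while no primed LAD lies between the one 2327 kb upstream of the gene and the one 6433 kb downstream.

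PTPRZ1 encodes a chondroitin sulfate-bearing receptor of neural progenitors and glia, whose secreted form is phosphacan. The gene (chromosome 7, 121873161 to 122062036, forward strand) spans 189 kb, of which 137 kb (72.4%) lay in naive LADs and 0 kb in primed LADs. There were 3 naive pieces of 46.8, 40 and 50 kb, separated by gaps of 30 and 10 kb. The 3 equal parts from the 5′ end were covered at 74.4%, 63.5% and 79.4%. Unlike the start of PTPRM, which lay in a short gap of the naive list, that of PTPRZ1 was inside a naive LAD. This LAD covered the 500 kb before the gene and ran 46.8 kb into it. Its promoter is shown as the CG-rich start that lay in a naive LAD and outside primed LADs (RefSeq, GRCh38.p14, forward strand, chr7:121872911-121873210, each CG in capitals).
PTPRZ1 promoter: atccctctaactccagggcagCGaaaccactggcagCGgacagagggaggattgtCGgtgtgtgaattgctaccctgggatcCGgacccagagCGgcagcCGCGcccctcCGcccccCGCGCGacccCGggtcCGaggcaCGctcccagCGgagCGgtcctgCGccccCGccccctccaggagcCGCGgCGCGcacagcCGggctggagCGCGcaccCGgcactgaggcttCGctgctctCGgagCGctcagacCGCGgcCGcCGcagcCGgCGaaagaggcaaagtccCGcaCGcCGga
This promoter held 38 CG dinucleotides, 73.3% G and C and 1 GATC site, the sequence that Dam methylates. Around the start, 96.8% of 100 kb was in naive LADs and 0% in primed LADs.

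The surroundings of PTPRZ1 were unlike those of PTPRM, since primed LADs approached the gene from both sides. The last primed LAD upstream ended at 121800000, 73.2 kb before the gene, and the next began at 122110001, 48.0 kb after it. The free stretch between them measured 0.31 Mb, contained PTPRZ1 as its only complete protein-coding gene, and was covered at 67.7% by naive LADs. In the 500 kb upstream, 100% of bases were in naive and 61.4% in primed LADs. In the 500 kb downstream the shares were 80.4% and 36.4%. FAM3C, a secreted-protein gene 477 kb upstream, was covered at 100% in naive LADs, against 65.5% in primed LADs. AASS, an enzyme of lysine breakdown 11.5 kb downstream, went the other way with 0% in naive and 28.3% in primed LADs, so the naive list had a gap directly next to PTPRZ1.

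**Figure D4:**
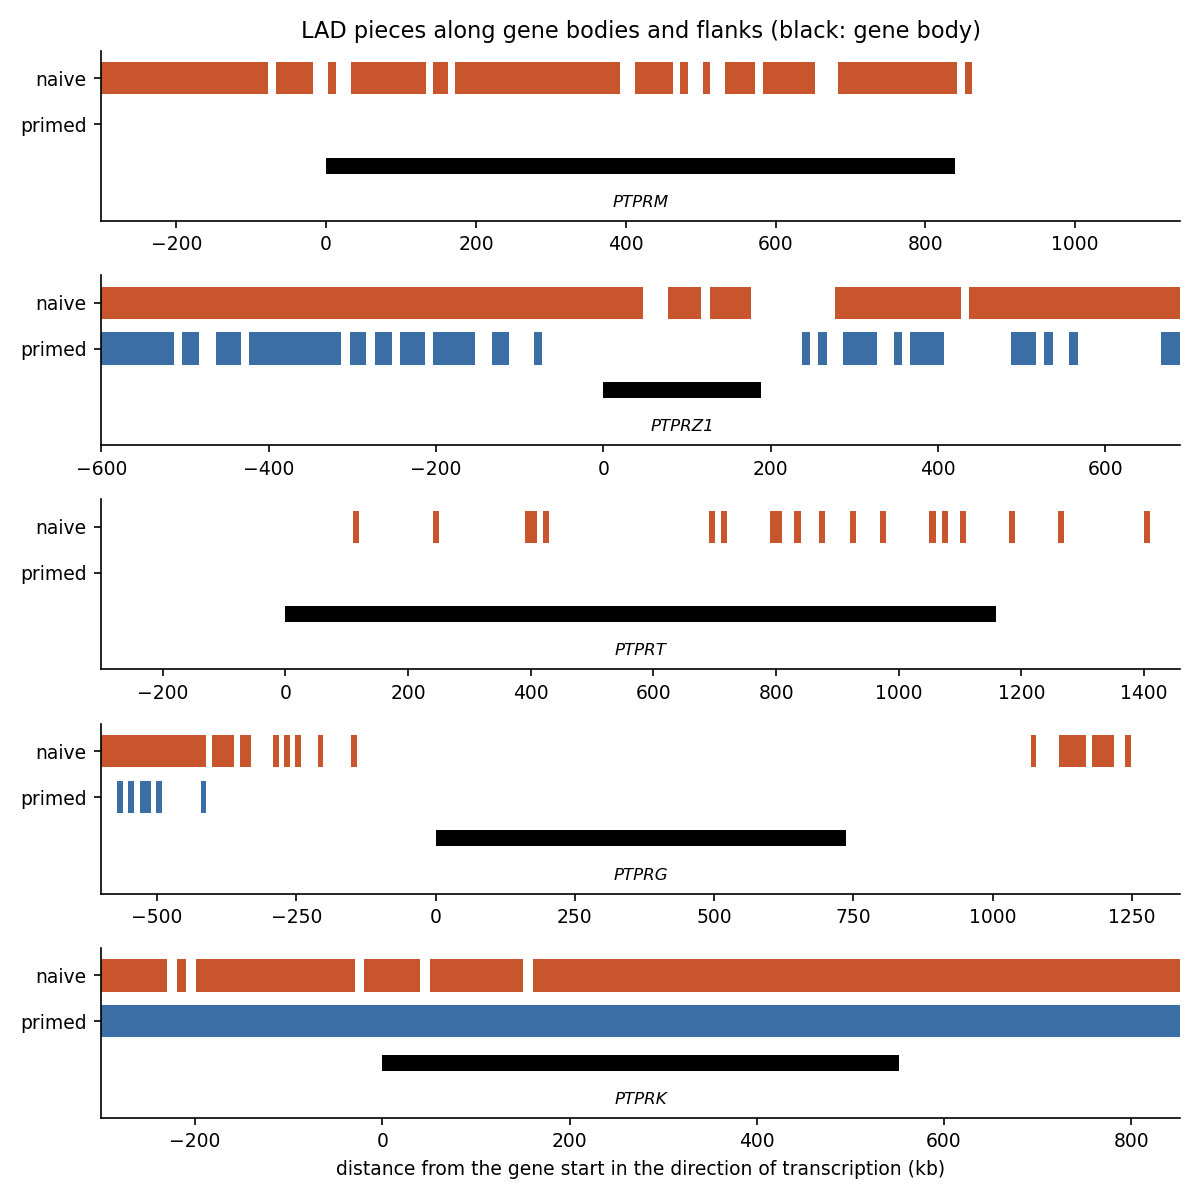
Naive LADs (orange) and primed LADs (blue) along 5 genes and their flanks, by distance in kb from the gene start in the direction of transcription; black bars are gene bodies. PTPRM has 10 naive pieces and PTPRZ1 3, PTPRT has 14 short ones, PTPRG has none inside the gene, and PTPRK is covered in both states with 2 naive gaps.

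The other R5 gene, PTPRG, a partner of contactins in the nervous system, had no LAD base in either state despite its 736 kb (chromosome 3, 61561571 to 62297609). Only 11 of the 151 protein-coding genes of at least this length had none. Naive LADs came no closer than 142 kb upstream and 332 kb downstream of it, and primed LADs no closer than 412 kb and 4642 kb. In the 500 kb upstream, naive LADs made up 39.7% and primed LADs 3.69%. FHIT, a large fragile-site gene and the nearest protein-coding neighbour upstream, had 82.4% of its body in naive LADs, against 42.7% in primed LADs. It follows that the 6 RefSeq genes nested in PTPRG were outside LADs of both states. PTPRG and PTPRM thus both lay in long stretches without primed LADs, of 5.79 Mb and 9.60 Mb. Naive LADs covered similar shares of both, 27.5% (1.59 Mb) around PTPRG and 27.7% (2.66 Mb) around PTPRM. By naive LAD bases the PTPRG stretch ranked 10 of 5694. The primed LAD at its upstream end was a single 10 kb window, and this stretch was not recomputed with LADs joined or filtered. Naive LADs reached into the body of PTPRM, however, and not into that of PTPRG.

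Among the other R2B genes, PTPRK was at the lamina in both states. PTPRK, an adhesion phosphatase of epithelia, spans 552 kb (chromosome 6, 127968785 to 128520599, reverse strand) and was covered at 96.4% in naive LADs, against 100% in primed LADs. Naive coverage came in 3 pieces with 2 single-window gaps, 40.6 and 151 kb from the gene start, whereas 1 primed LAD spanned the gene and its flanks. Its start lay in a LAD of both lists, although the promoter held 44 CG dinucleotides and 76.3% G and C. THEMIS (50.2 kb downstream) and LAMA2 (363 kb upstream), its neighbours, were covered at 100% in both states.

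PTPRT, an R2B phosphatase found mainly in brain, touched naive LADs in many short pieces and primed LADs nowhere. The gene (chromosome 20, 42031890 to 43189906, reverse strand) spans 1158 kb, of which 160 kb (13.8%) lay in naive LADs. In order of naive share, PTPRT is the next member below the 50% threshold and PTPRZ1 at 72.4% the next above it, neither of them close to it. Naive coverage of PTPRT fell into 14 pieces, 12 of them single windows and none longer than 20 kb, with gaps of up to 260 kb. The pieces thinned out toward the start: the 3 equal parts from the 5′ end were covered at 5.18%, 13.0% and 23.3%. Single windows occurred at 10.4 per Mb in PTPRT, at 3.57 per Mb in PTPRM, and at 1.40 per Mb over all 2111 genes of at least 90.3 kb with no primed LAD base. Among those 2111 genes, only RBFOX1, a neuronal splicing factor gene, also had 12 or more single windows (20 in 2474 kb). Such counts favour long genes. Per Mb, DSCAM (11 in 836 kb) and PIEZO2 (10 in 479 kb) held more than PTPRT, and RBFOX1 held fewer. RBFOX1, DSCAM and PIEZO2 were named after their values were seen. PTPRT lay in a stretch of 6.43 Mb free of primed LADs, 9.64% of it in naive LADs, and 0 of the 60 protein-coding genes inside that stretch were called in naive LADs. PTPRU, the smallest member at 90.3 kb (chromosome 1, 29236522 to 29326800), was at 0% in both states.

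In the R2A subfamily a single gene was at the lamina. PTPRD, a synaptic organiser and the longest member, spans 2299 kb (chromosome 9, 8314246 to 10613002, reverse strand) and was covered at 99.6% in naive LADs, against 100% in primed LADs. The naive list broke it once, by a single window 203 kb from the gene start. All 3 of its RefSeq starts, at 0, 1834 and 1879 kb into the gene, were in LADs of both states, as were the 500 kb on either side at 100%. As in PTPRM, the first promoter was richer in CG than the internal ones, with 40 CG dinucleotides at the first start and 4 and 7 at the internal ones. PTPRS, a receptor for heparan and chondroitin sulfate chains on axons (chromosome 19, 5205508 to 5340812), and PTPRF, known as LAR (chromosome 1, 43522051 to 43623666), were at 0% in both states. They lay in LAD-poor DNA. Chromosome 19 was covered at 0.0853% in naive LADs, against 0.154% in primed LADs, and the nearest LAD to PTPRF was 4556 kb away in naive and 4516 kb away in primed. PTPRU and PTPRF shared 1 stretch of chromosome 1, 31.6 Mb without naive LADs and 47.5 Mb without primed LADs, the longest of all primed-free stretches.

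Base composition at the start did not separate covered from uncovered members. All 9 genes had a CG-rich promoter in the RefSeq table, with 34 to 55 CG dinucleotides in 300 bases. The median was 14 over all 35116 promoters of that table, of which 15.6% held 34 or more. That cut is the lowest value among the 9. The range also leaves out the internal promoters of PTPRM (2) and PTPRD (4 and 7), so it and the 15.6% are not a like comparison. For PTPRF the tabulated promoter lies 8.83 kb inside the gene body. The 3 members whose start was in a naive LAD had 38 (PTPRZ1), 44 (PTPRK) and 40 (PTPRD), and the 6 whose start was outside had between 34 (PTPRG) and 55 (PTPRS). Among these 6, the start of PTPRM (50) lay in a short gap between naive LADs. The GATC motif, which reads the same on both strands, was present in the CG-rich promoters of PTPRZ1, PTPRG and PTPRF and in 41.7% of all promoters. By length the sets overlapped: the 4 genes without LAD bases in either state measured 90.3, 102, 135 and 736 kb, and the 5 with naive LAD bases 189 to 2299 kb.

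Related genes were read from lists drawn up by function, but with earlier results of these data known. Here and in the next paragraph, nothing is therefore read from the counts of these lists against the shares of all genes. For comparison, naive LADs held 18.9% and primed LADs 17.3% of all protein-coding genes, or 38.9% and 34% of those of at least 90.3 kb, and 3.44% and 6.77% of these sets were naive-only. Genes of these lists in LADs of both states or of neither were named after their values were seen, except IL1RAPL1, PPFIA2 and CDH2. The naive list took in 6 of the 11 other receptor phosphatase genes, and the primed list 5. PTPRC (CD45), PTPRB (VE-PTP), PTPRO, PTPRQ and PTPRR were in LADs of both states, each covered at 96.6% to 100%. PTPRE, which has a very short extracellular part, differed between the lists, with 61.5% in naive and 0% in primed LADs. All 20 receptor phosphatase genes together gave 10 in naive and 7 in primed LADs, of which 3 were naive-only (PTPRM, PTPRZ1 and PTPRE) and 0 primed-only. Naive LADs held 4 of 17 cytosolic phosphatase genes and primed LADs 2, with a median covered share of 0% in both. PTPN3 (75.4% naive, 0% primed) and PTPN13 (84.1% and 31.7%), which carry FERM and PDZ domains, were in naive LADs only, whereas PTPN4, which carries them too, was at 0% in both. PTPN14 and PTPN21 were in both, with less coverage in naive (64.1% and 83.2%) than in primed LADs (88.7% and 94.4%).

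Ligands and partners of the R5 phosphatases were in LADs of both states for 8 of 12 genes and those of the R2A phosphatases for 11 of 18, beside 15.4% of all protein-coding genes and 32.1% of those of at least 90.3 kb. For the R5 list, naive LADs held 10 genes and primed LADs 8, with a median covered share of 98.7% in both. PTN, the gene of the PTPRZ1 ligand pleiotrophin, was covered at 100% in both states, whereas MDK, the gene of the related ligand midkine, was at 0% in both. The contactin genes CNTN1, CNTN3, CNTN4, CNTN5 and CNTN6 were covered at 92.1% or more in naive and at 97.4% or more in primed LADs. Tenascin-R and neural cell adhesion molecule, both binding partners of PTPRZ1 or phosphacan, differed as PTPRZ1 did. TNR was covered at 92.2% in naive LADs, against 9.34% in primed LADs, and NCAM1 at 84.7% in naive and 0% in primed LADs. The 11 R2A ligands and partners in LADs were the same genes in both states, among them the 6 SLITRK genes of synaptic adhesion proteins. The longest were IL1RAPL1 (95.6% naive, 99.3% primed), a synaptic partner of PTPRD, and PPFIA2 (98.0% and 100%), a liprin scaffold of the presynaptic side. Of 7 cadherin and catenin genes linked to R2B phosphatases, CDH2 (N-cadherin) was in LADs of both states at 97.1% in naive and 95.9% in primed, and the other 6 were at 0% in both. The R5 list is long-gened, with a median length of 314 kb, against 51.9 kb for the R2A list and 57.7 kb for cadherins and catenins. Of all protein-coding genes of 300 to 1000 kb, 48.7% were in LADs of both states, and of those of 30 to 100 kb 14.9%.

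**Figure D5:**
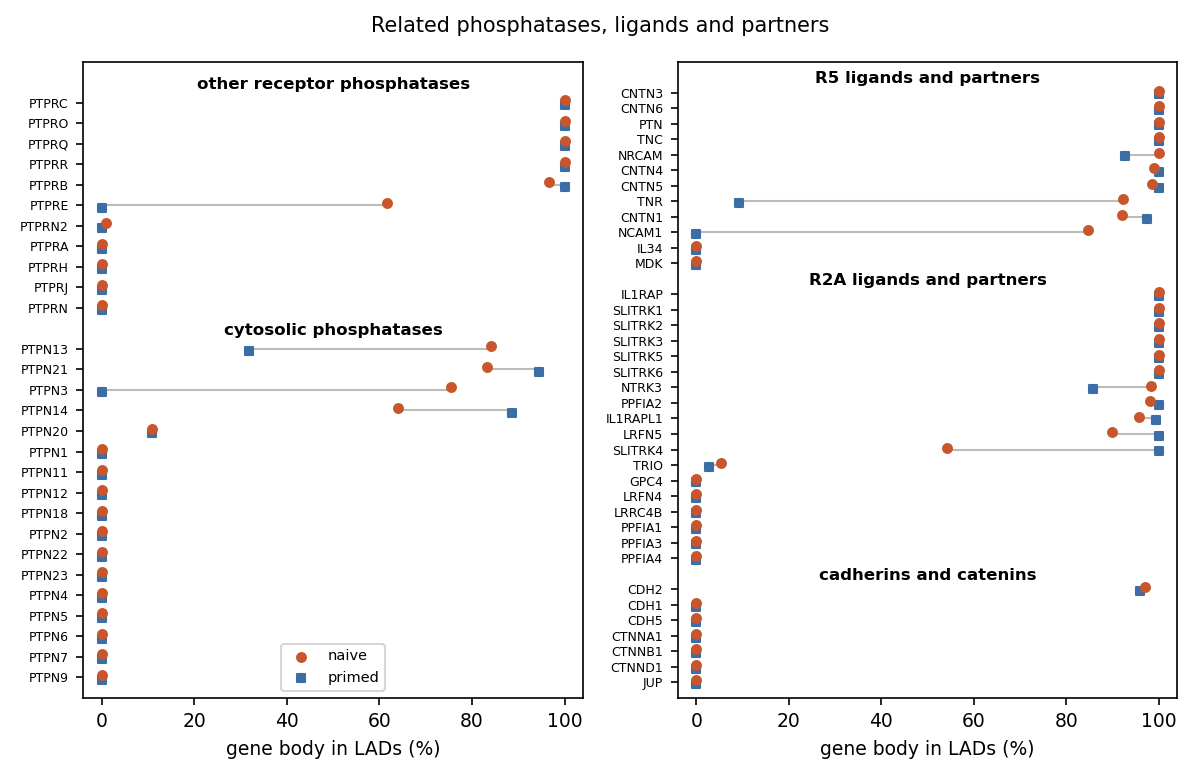
Percentage of the gene body in naive LADs (orange circles) and primed LADs (blue squares) for 65 related genes, joined by a line for each gene. The wide gaps toward naive are PTPRE, PTPN13, PTPN3, TNR and NCAM1; the widest toward primed is SLITRK4 (54.2% in naive, 100% in primed).

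The genes with the most similar pair of covered shares were looked up among 3343 other protein-coding genes of at least 100 kb. The measure was the larger of the differences in naive and in primed share. Closest to PTPRZ1 were ADAMTS16 (72.4% naive, 0% primed), MAMDC2 (72.7% and 0%) and LOC124903162 (72.2% and 0%), at most 0.294 percentage points away. Closest to PTPRM were SLC1A2 (82.3% and 0%), INSYN2B (82.8% and 0%) and SPOCK1 (82.8% and 0%), at most 1.01 points away. With 2 lists, this likeness rests on 2 values for each gene. By length, PTPRM ranked 12 of all 687 naive-only genes, and by the difference between the covered shares it ranked 278.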

How the data were processed

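The deposited files were 1 interval list per state (naive, primed) with chromosome, start and end. Per the submitters' processing notes, BWA, SAMtools 1.10, SICER and the build hg38 were used. The order of these steps, their thresholds and the joining of 6 libraries into 1 list are not stated in the sources used here. The labels call the lists final, while the files call them simple, and what sets these apart is not stated either. Intervals were whole 10 kb windows, and no intervals of a list touched.

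Gene bodies and promoters came from RefSeq (GRCh38.p14, whose primary chromosomes are those of hg38). All 9 members and 65 genes of 5 related lists matched by symbol. Coordinates are 1-based. A strand was known for 15812 genes. Covered share, pieces and gaps were computed for every protein-coding gene. With 1 list per state, no test was run. Members and lists were chosen with earlier results of these data known. All members were named, as was each list gene in LADs of 1 state only, along with the nearest neighbours and the 3 most similar genes. As a check of the code, a LAD was laid over the whole body of 200 of 19970 genes that held no LAD base. All 200 were then called, as this setting fixes in advance. Leaving aside genes that overlapped the added LADs, 0 others were called. The check says nothing about LADs broken into short pieces. Alternatives joined or filtered LADs, or changed the gene share or the part of the gene used. The tools were pandas 2.3.3 and numpy 2.4.6 under Python 3.11.15, with figures drawn in matplotlib 3.10.9.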

Additional observations from a re-analysis of the deposited data

How the results depend on the processing

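The counts of the 9 genes in LADs were recomputed under 10 alternatives. When 90% coverage was asked for, naive LADs held 2 of the 9 genes in place of 4. In naive LADs only there were 0 in place of 2. The shares of genes of at least 90.3 kb fell too, from 38.9% to 28.4% in naive LADs and from 6.77% to 4.44% naive-only. Without LADs under 100 kb, 1 gene, PTPRM, was in naive LADs only, because PTPRZ1 went to 24.8% in naive LADs. Of genes of at least 90.3 kb, 5.31% were then naive-only. All other alternatives gave 2 naive-only genes, and the primed count was 2 under all 10. The naive minus primed share of PTPRM ran from 56.8 to 100 percentage points and that of PTPRZ1 from 24.8 to 100 points. For PTPRT it ran from 0 points without LADs under 50 kb to 45.6 points with LADs less than 100 kb apart joined, so its value rests on short LADs. The small deficits of PTPRK and PTPRD in naive (-3.62 and -0.44 points) became 0 once single-window gaps were joined, and without LADs under 100 kb that of PTPRK was -10.98 points. The count of all naive-only genes stayed between 480 and 945 against 687. In an alternative added after seeing the data, the stretch around PTPRM held the most naive LAD bases of all primed-free stretches under all 7 settings that joined or filtered LADs. The naive LADs of PTPRM itself count in these totals, so this rank too follows in part from the choice of the gene. The limits of the stretch depended on single windows: joining left it at 9.60 Mb with 2.89 to 3.87 Mb of naive LADs, and filtering widened it to between 22.31 and 25.16 Mb with 4.10 to 4.60 Mb. No paired analysis was possible because the lists do not keep the replicates apart. Depth is unknown, which limits every call of a single window.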
